A study of Mus musculus with 2 samples.

Results

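The vascular and mesenchymal microRNAs described here are 8 loci out of 1973 gene rows and were listed by name, with earlier results of these data known. They are Mir126a of endothelial cells, Mir143 and Mir145a of smooth muscle cells and pericytes, the miR-199 loci Mir199a-1, Mir199a-2 and Mir199b with Mir214 of mesenchyme, and Mir140 of cartilage. All 8 had a row in both tables. MicroRNA sequencing of RNA under 30 nt was made from the midbrain of healthy B6NCrl mouse embryos at embryonic day 13.5, with males and females pooled. The series holds 1 group of 2 biological replicates with 1 library each and no treatment, mutation or second tissue. The samples share 1 donor record, and the labels do not say whether they came from separate litters, so p-values measure the difference between these libraries, part of which may be technical.

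A microRNA is cut from a hairpin in a longer transcript and, as a mature strand, guides silencing of messenger RNAs that pair with its seed, bases 2 to 8. miR-126 is made from an intron of Egfl7, a gene of endothelial cells, and is known for supporting the growth and integrity of vessels. miR-143 and miR-145 come from 1 primary transcript and are known for the contractile state of smooth muscle. The miR-199 and miR-214 loci are known from embryonic mesenchyme and skeletal development, and miR-140 from chondrocytes. Brain tissue at this age holds vessels, their mural cells and adhering mesenchyme of the meninges beside neural cells.

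The mature sequences are shown because the counts are per hairpin and do not tell the strands apart, while seed and sequence set what each strand can be. Mature sequences from RefSeq (GRCm38.p6) were taken for 6 of the 8 loci, all but Mir143 and Mir145a. The entries used held no miR-126a-5p, miR-140-5p or miR-199b-5p, so these strands are not shown. The others are printed 5′ to 3′ with the seed in capitals.
miR-126a-3p: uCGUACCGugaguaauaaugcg
miR-140-3p: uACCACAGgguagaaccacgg
miR-214-3p: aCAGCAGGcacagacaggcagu
miR-214-5p: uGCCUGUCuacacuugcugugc
miR-199a-5p: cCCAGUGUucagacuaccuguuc
miR-199a-3p and miR-199b-3p: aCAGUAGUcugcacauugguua
Among these, miR-199a-3p and miR-199b-3p were the only pair with a common seed, and their whole sequence is the same. The seed of miR-214-3p differs from that of miR-199a-3p by U5C and U8G, with positions counted from the 5′ end of the mature strand.

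The hairpins of the 3 miR-199 loci are printed to show which part of them a read cannot place. Capitals mark bases inside a window of 22 nt that is also present in another annotated microRNA hairpin.
Mir199a-1: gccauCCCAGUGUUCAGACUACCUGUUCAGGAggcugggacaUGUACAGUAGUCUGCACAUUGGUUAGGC
Mir199a-2: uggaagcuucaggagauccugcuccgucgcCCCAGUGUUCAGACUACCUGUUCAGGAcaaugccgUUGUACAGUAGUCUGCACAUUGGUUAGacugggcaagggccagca
Mir199b: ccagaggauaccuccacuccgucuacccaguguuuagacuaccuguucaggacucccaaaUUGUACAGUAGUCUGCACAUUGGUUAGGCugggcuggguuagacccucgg
In Mir199a-1 and Mir199a-2 the capitals cover both arms, and in Mir199b only the 3′ arm. miR-199a-5p occurs in 2 hairpins, Mir199a-1 and Mir199a-2, and the 3′ mature strand in 3. The matching run of Mir199b, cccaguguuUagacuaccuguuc, differs from miR-199a-5p by C10U alone, shown as the capital, with positions counted from the 5′ end of miR-199a-5p.

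On mm10, Mir126a lies at chr2:26591357-26591429 on the plus strand, inside Egfl7, where 1 of the 9 overlapping transcripts has an exon at this place and the others an intron. Mir140 lies at chr8:107551244-107551313 (plus) inside Wwp2, a ubiquitin ligase gene, with an exon in 1 of 4 transcripts. Mir199a-2 at chr1:162217814-162217923 (plus) and Mir214 at chr1:162223368-162223477 (plus) overlap exons of the noncoding transcript Dnm3os, 5444 nt apart, within an intron of Dnm3 on the opposite strand. Mir199a-1 at chr9:21496495-21496564 (minus) and Mir199b at chr2:32318460-32318569 (plus) lie opposite introns of Dnm2 and Dnm1. All 3 dynamin genes thus carry a miR-199 hairpin on the strand opposite to their own. Mir143 and Mir145a lie within the RefSeq span of Carmn, also named Mir143hg, and their coordinates are left out because their ID versions differ between the annotations.

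Replicate 1 held 5093743 counts on the strand of a gene and replicate 2 held 2935841. Levels are in CPM, counts scaled to 1000000 same-strand counts over all gene rows. With 3 counts as the limit, a locus at 0 could lie at up to 0.589 CPM in replicate 1 and up to 1.02 CPM in replicate 2, and these limits and the intervals below cover counting error only. Multimapping reads, 34.4% and 37.7% of all reads, were counted at no locus. CPM was not divided by hairpin length, since a read of a mature microRNA spans the whole molecule. Of the neural loci listed for comparison, Mir135b, Mir92b and Mir137 stood at 6397.5 CPM or more in both libraries, whereas the 3 Mir124a loci of neurons, which make the same mature strand, stood at 9.42 CPM or less. No count fell on 3 of the 8 muscle loci, which does not show absence, since multimapping reads are in no locus count. The highest muscle locus, Mir208b, stood at 39.3 and 40.9 CPM. In bulk tissue, fewer cells of a type and less RNA per cell cannot be told apart.

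Together the 8 loci held 128482 counts in replicate 1, 2.52% of the library (95% exact Clopper-Pearson interval 2.51 to 2.54), and 93925 counts in replicate 2, 3.20% (3.18 to 3.22). Mir126a took 64.5% of them in replicate 1 and 66.2% in replicate 2. The 7 other loci held 0.897% and 1.08% of the libraries. In reads placed at a single locus, Mir126a exceeded the sum of the other 7 loci 1.81-fold (1.79 to 1.83) in replicate 1 and 1.96-fold (1.93 to 1.98) in replicate 2. The intervals do not cover multimapping reads, which are missing from the miR-199 loci in this sum.

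**Figure D1:**
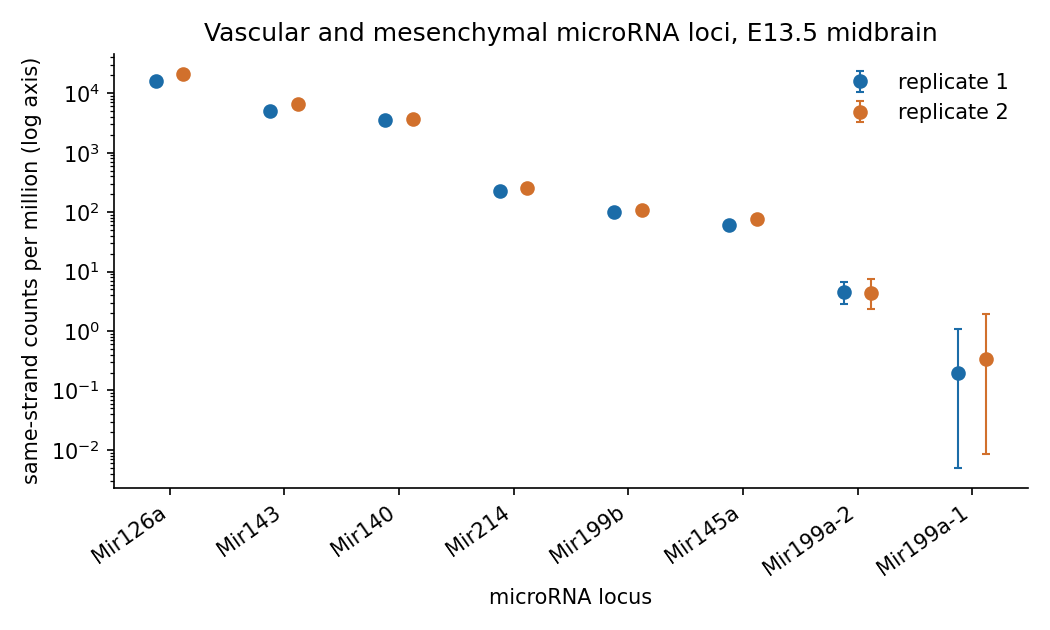
Level in CPM of same-strand counts (log axis) of the 8 loci in replicate 1 and replicate 2, in order of mean level, with 95% exact binomial intervals as bars. Mir126a, Mir143 and Mir140 stand above 1000 CPM in both libraries, and Mir199a-1 rests on 1 count in each.

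Mir126a, the endothelial microRNA, had 82805 counts (16256 CPM) in replicate 1 and 62151 counts (21170 CPM) in replicate 2. It ranked 16 and 10 among all loci. Its mean was 18713 ± 3474 CPM (SD, n = 2), and replicate 2 was the higher library. With multimapping reads added to the library total, the mean was 10260 CPM, and for Mir143 and Mir140 it was 3185 and 2019 CPM. By level over both libraries, the loci outside the list closest to it were Mir26b at a distance of 0.0751 on the log2 scale, Mir149 at 0.233 and Mir181c at 0.316, which describes 2 libraries only.

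Mir143, the leading mural locus, had 25423 counts (4991 CPM) in replicate 1 and 19453 counts (6626 CPM) in replicate 2, a mean of 5809 ± 1156 CPM. Mir145a, the other microRNA of this transcript, which in smooth muscle acts beside miR-143, had 306 counts (60.1 CPM) and 223 counts (76.0 CPM), a mean of 68.0 ± 11.2 CPM. Replicate 2 was the higher library for each of them, and the levels of the pair lay far apart. Mir143 exceeded Mir145a 83.1-fold in replicate 1 (95% exact binomial interval 74.2 to 93.3) and 87.2-fold in replicate 2 (76.4 to 99.99). Neither hairpin has a window of 22 nt in common with another annotated hairpin. The longest run Mir145a shares with one elsewhere is 17 nt, with Mir145b, whose own row had 0 counts in both libraries. How far sequence-dependent capture bears on the ratio was not tested. The loci nearest in level to Mir143 were Mir652 (distance 0.360), Mir181a-1 (0.365) and Mir411 (0.376).

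Mir140, known from cartilage, was the steadiest of the abundant members. It had 18247 counts (3582 CPM) in replicate 1 and 11016 counts (3752 CPM) in replicate 2, a mean of 3667 ± 120 CPM, at ranks 50 and 47. Its nearest loci were Mir15a (0.165), Mir153 (0.196) and Mir431 (0.225).

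Mir214, of the Dnm3os transcript, had 1165 counts (228.7 CPM) in replicate 1 and 751 counts (255.8 CPM) in replicate 2, a mean of 242 ± 19.2 CPM. The locus closest to it in level was Mir455 (0.0369), a microRNA known from cartilage that is hosted by a collagen gene, followed by Mir542 (0.0687) and Mir383 (0.0868). Mir199a-2, on the same transcript, had 23 counts (4.51 CPM) and 13 counts (4.43 CPM). Mir214 thus exceeded Mir199a-2 50.7-fold in replicate 1 (33.6 to 80.2) and 57.8-fold in replicate 2 (33.6 to 109). Unlike Mir143 and Mir145a, this pair differs in how well reads can be placed, since Mir214 has no shared window of 22 nt and both mature strands of Mir199a-2 occur in another hairpin. How far this bears on the ratio was not tested.

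Mir199b had 512 counts (100.5 CPM) in replicate 1 and 317 counts (108 CPM) in replicate 2, a mean of 104 ± 5.28 CPM. Mir199a-1 had 1 count in each library, 0.196 CPM (interval 0.00497 to 1.09) and 0.341 CPM (0.00862 to 1.90), under the limit of 3 counts. Of the 3 miR-199 loci, the one whose 5′ arm has a sequence of its own held the most counts. Counts per hairpin do not show which arm the reads came from, and the part of read placement was not tested. Summed, the 3 miR-199 loci held 536 and 331 counts. Mir214 exceeded the sum 2.17-fold (1.96 to 2.41) and 2.27-fold (1.99 to 2.59), a comparison added after the values were seen. The loci nearest in level to Mir199b were Mir503 (0.0270), Mir673 (0.124) and Mir345 (0.135).

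**Figure D2:**
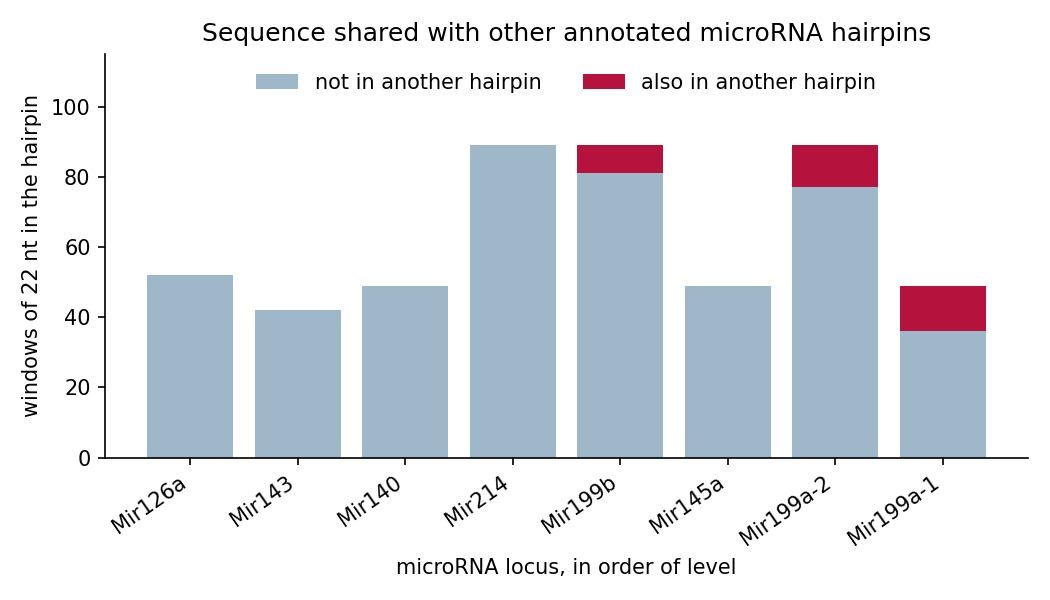
Number of 22-nt windows in each hairpin, divided into those found in no other annotated microRNA hairpin and those also found in another, with the loci in order of level. Shared windows occur in the 3 miR-199 hairpins, 13 of 49 in Mir199a-1, 12 of 89 in Mir199a-2 and 8 of 89 in Mir199b, and in none of the other 5.

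The shared windows are few, but in the miR-199 hairpins they include the mature strands, from which most reads of a hairpin come. Reads of miR-199a-3p, miR-199b-3p and miR-199a-5p match several loci exactly, and multimapping reads are in no locus count. The values of Mir199a-1, Mir199a-2 and Mir199b are therefore uncertain and are not levels of the mature microRNAs. The search covered 2202 annotated hairpins and not the rest of the genome.

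The order of levels was the same in both libraries, namely Mir126a, Mir143, Mir140, Mir214, Mir199b, Mir145a, Mir199a-2 and Mir199a-1. For every neighbouring pair the lower library of the higher locus lay above the higher library of the lower locus. The closest were Mir143 over Mir140, 1.39-fold and 1.77-fold, and Mir199b over Mir145a, 1.67-fold and 1.42-fold. With 2 libraries this order describes them and has no test.

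Between the libraries, 5 of the 7 loci with at least 10 counts differed by the two-sided exact conditional binomial test, with Benjamini-Hochberg adjustment over all 466 loci tested. All 5 were higher in replicate 2. Over all loci tested, 38.0% passed, 18.7% as higher in replicate 1 and 19.3% as higher in replicate 2. The same 5 members passed as higher in replicate 2 under 6 other settings, beside 19.1% of all loci with DESeq2 size factors, 14.8% with total counts only, 11.4% with no minimum count, 25.7% with a minimum of 50 counts, 19.7% with unstranded counts and 19.4% with replicate 1 thinned to equal depth. As log2 ratios of replicate 1 to replicate 2, the median stood at -0.23 over the 7 loci and at -0.0041 over all loci tested. This test compares the libraries by counting error and takes in no spread between animals. It passes smaller ratios at loci with more counts, and the share of all loci passing as higher in replicate 2 rose with the minimum count. The shares over all loci are therefore not matched to the members in depth. When a fold of at least 1.5 was also required, a setting added after the data were seen, none of the 8 remained and 7.30% of all loci did.

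Folds between the libraries, here and below, are on TMM-scaled library sizes and not on the CPM above. Mir143 was 1.39-fold higher in replicate 2 (log2 ratio -0.48, exact conditional binomial test, adjusted p = 5.16e-256). Mir126a was 1.36-fold higher (-0.45), with a p too small for the software to store. Ratios of this size were not rare. Of the 205 loci with a mean CPM of at least 100, members included, 21 had a ratio at least as large as that of Mir143 in either direction. For Mir126a the number was 25. The ratio of Mir126a to Mir143 was 3.26 (3.21 to 3.30) in replicate 1 and 3.20 (3.14 to 3.25) in replicate 2, and these intervals overlapped.

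Mir145a was 1.32-fold higher in replicate 2 (-0.40, exact test, adjusted p = 0.00567) and Mir214 1.17-fold (-0.23, adjusted p = 0.00287). Mir140 was 1.10-fold higher (-0.13, exact test, adjusted p = 1.45e-13), and 118 of the 205 loci had a ratio as large in either direction. With total counts only, Mir140 was 1.05-fold higher (-0.067). Mir199b (-0.17, exact test, adjusted p = 0.207) and Mir199a-2 (-0.035, adjusted p = 1, and above 0 with total counts only or with replicate 1 thinned) did not pass, and Mir199a-1 was not tested.

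**Figure D3:**
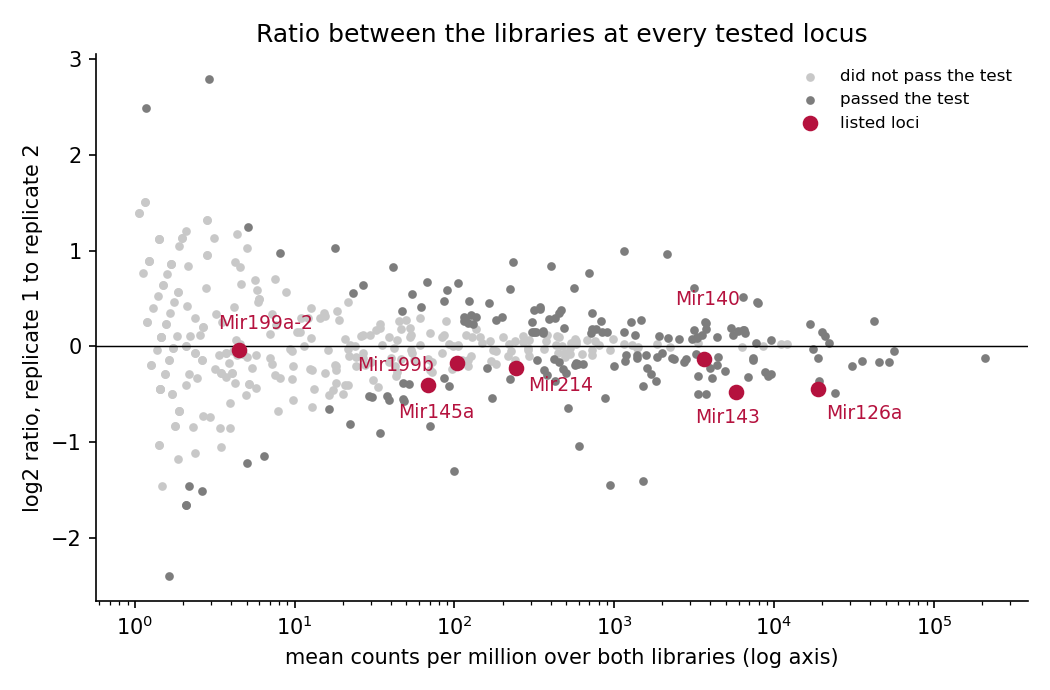
Log2 ratio of replicate 1 to replicate 2 against mean CPM (log axis) for the 466 loci tested, with loci that passed the exact test in dark grey and the 7 tested members in red. All 7 lie below 0, between -0.035 for Mir199a-2, which lies above 0 with total counts only or with replicate 1 thinned, and -0.48 for Mir143, within the cloud of the other loci.

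Other microRNAs linked to vessels gave a mixed picture. Of 8 listed vascular loci with a row, 4 passed as higher in replicate 2 (19.3% of all loci tested), 1 as higher in replicate 1 (18.7%) and 3 did not pass. Their median log2 ratio was -0.14. The highest were Mir23b (7259 and 7507 CPM), Mir23a (3186 and 4279 CPM) and Mir27b (611 and 662 CPM), all found in many cell types besides endothelium, and all 3 passed as higher in replicate 2. Mir221, which acts on the cell cycle and is abundant in endothelial cells, was the locus higher in replicate 1, with 145 and 118 CPM.

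Of 12 other mural and mesenchymal loci, 3 passed as higher in replicate 1 and 3 as higher in replicate 2, beside 18.7% and 19.3% of all loci tested. Another 4 did not pass and 2 were not tested. The median log2 ratio of this list was -0.17. Those higher in replicate 1 were Mir21a (4671 and 4163 CPM, log2 ratio 0.099), Mir708 (3464 and 3102 CPM, 0.093) and Mir29c (128 and 101 CPM, 0.269). Mir21a is made by many cell types. Those higher in replicate 2 were Mir22 (3062 and 3612 CPM, -0.305), Mir195a (415 and 617 CPM, -0.637) and Mir455 (224 and 252 CPM, -0.233). The higher values in replicate 2 thus did not extend to all listed mesenchymal loci.

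The 6 blood loci with a row summed to 0.0413% of replicate 1 and 0.0436% of replicate 2, and none was at 0. Mir223, of myeloid cells, was higher in replicate 2 (144 and 200 CPM). Mir451a, of red cells, was higher in replicate 1 (53.8 and 39.5 CPM, exact test, adjusted p = 0.0454). The 4 others did not pass. Of these, Mir155 (147 and 124 CPM) and Mir150 (27.7 and 24.5 CPM) lay higher in replicate 1. Mir144 (27.9 and 34.1 CPM) and Mir486 (11.8 and 13.3 CPM) lay higher in replicate 2. Thus 1 of 6 passed in each direction, beside 18.7% and 19.3% of all loci tested. The part of the blood loci in the values of Mir126a was not tested. The 8 muscle loci, read as markers of cells that could accompany Mir143, summed to 0.00609% and 0.00620%. The highest were Mir208b (39.3 and 40.9 CPM), Mir206 (14.7 and 10.6 CPM) and Mir208a (4.5 and 5.8 CPM). Mir1a-1, Mir133a-1 and Mir133a-2 were at 0 in both libraries, and none of the 4 loci tested passed. Multimapping reads are missing from the blood and muscle loci as well.

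The 11 neural loci with a row summed to 3.08% of replicate 1 and 2.88% of replicate 2, with none at 0. Of these loci, 2 passed as higher in each library and 7 did not pass, beside 18.7% (replicate 1) and 19.3% (replicate 2) of all loci tested. Multimapping reads are missing from the neural loci as well, among them the Mir124a loci, which make the same mature strand. Mir137, of differentiating neurons, had 9266 CPM in replicate 1 and 6398 CPM in replicate 2, a direction opposite to that of the 5 members (log2 ratio 0.47, exact conditional binomial test, adjusted p = 1.18e-320). Mir135a-2 was likewise higher in replicate 1 (388 and 332 CPM). Mir92b (8440 and 9987 CPM, log2 ratio -0.31) and Mir128-2 (341 and 387 CPM, -0.25) passed as higher in replicate 2, the direction of the 5 members. The part of the neural loci in the members' values was not tested.

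**Figure D4:**
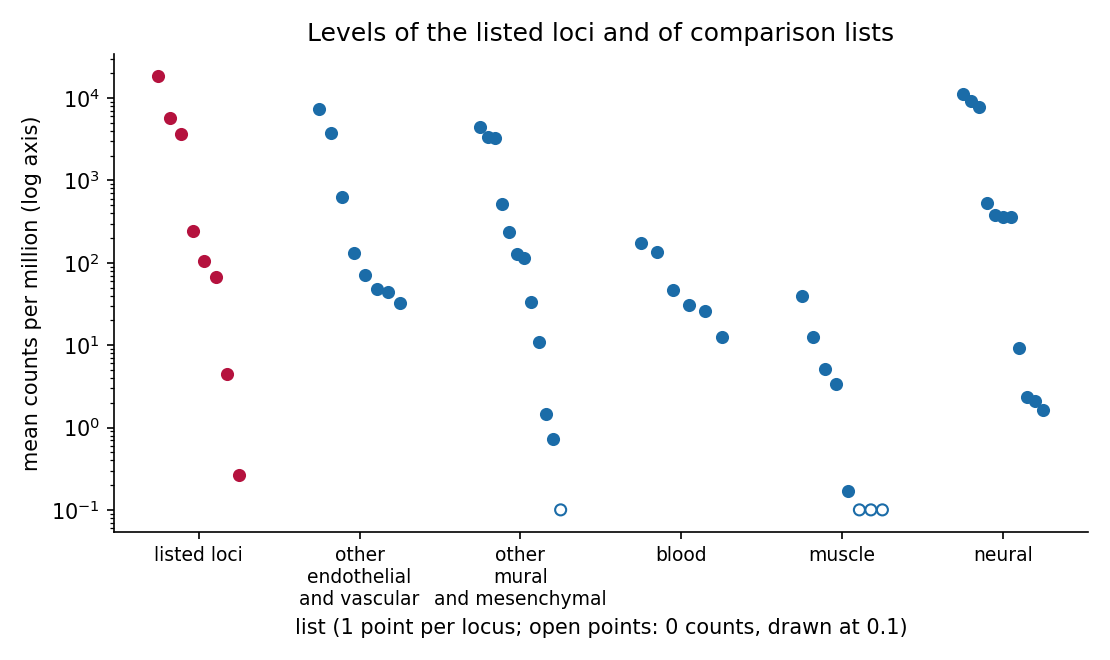
Mean CPM over both libraries (log axis) for each locus of the 8 listed microRNAs and of 5 comparison lists, with open points for loci at 0 counts. Mir126a at 18713 CPM is the highest point shown, and the blood and muscle loci lie at 172 CPM or lower. Multimapping reads are in no point, so points of hairpins that share a mature strand are not levels of that strand.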

How the data were processed

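The authors deposited raw read counts per gene, 1 table per library, on mm10 with annotation M4, per the notes deposited with each sample. Neither the aligner nor trimming and read filters were named there. The first count column equalled the sum of the others in 3946 of 3946 rows, and it was read from this as unstranded counts. The others were taken, in order, as same-strand and opposite-strand counts, which the sum does not show. At Mir126a in replicate 1 they held 82805 and 1 counts. The 4 summary rows were left out of library sizes. Unmapped reads were 16.1% and 15.7%, and reads outside genes 3.79% and 3.80%, of replicates 1 and 2.

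Of 1973 gene IDs, 1894 matched GENCODE M21 (same assembly) without the version. The microRNA sequences came from RefSeq (GRCm38.p6), and windows of 22 nt were searched on both strands of the M21 hairpins, leaving out hairpins at the same place. Loci with at least 10 counts were compared by an exact conditional binomial test (scipy 1.17.1) on TMM-scaled library sizes (edgeR 4.0.16, R 4.3.3), adjusted at 0.05, with ratios at a pseudocount of 0.5 CPM. The test was tried on simulated data. Alternatives used size factors of DESeq2 1.42.0, total counts, other minimums and pseudocount, unstranded counts, thinning, other denominators and leaving out a replicate.

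All 8 members are named, with the 3 loci nearest in level to each member of at least 100 CPM and the 3 highest of comparison lists. Some lower loci of these lists are named beside them. Members and lists were chosen with earlier results of these data known.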

Additional observations from a re-analysis of the deposited data

Results flagged for a closer look

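Counts on the strand opposite to a listed locus lie outside the values reported above, and at 2 loci they exceeded the limit of 3 counts that a count of 0 allows. At Mir126a there were 4 opposite-strand counts in replicate 2 and 1 in replicate 1, where the annotation places Mir126b, a microRNA without a row of its own. At Mir214 there were 7 opposite-strand counts in replicate 2 and 1 in replicate 1. The other 6 loci had 0 opposite-strand counts in both libraries.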

How the results depend on the processing

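The count of 5 members that differed between the libraries, all higher in replicate 2, was 5 with DESeq2 size factors, total counts only, no minimum count, a minimum of 50 counts, unstranded counts and replicate 1 thinned. It was 0 with a required fold of at least 1.5, chosen after seeing the data. Of the single ratios, that of Mir199a-2 changed sign, to 0.025 with total counts only and 0.12 with replicate 1 thinned, and did not pass in either. With total counts only, Mir145a and Mir214 passed the exact test at adjusted p = 0.024 and 0.046. The summed share of 2.86% was 1.57% with multimapping reads in the denominator, 0.990% without the highest locus, Mir126a, and 2.52 to 3.20% with a replicate left out. The 5 loci at 100 CPM were 3 at a threshold of 1000 CPM, and 4 with unstranded counts or multimapping reads in the denominator. The ratio of Mir143 to Mir145a was 83.1 to 87.2 and that of Mir214 to Mir199a-2 was 50.7 to 57.8 with a replicate left out, and Mir214 stood at 2.22 times the 3 miR-199 loci together, an added comparison. No paired analysis was possible because the series holds 1 group. With multimapping reads in the denominator, the mean level was 10260 CPM for Mir126a, 3185 CPM for Mir143 and 2019 CPM for Mir140. Mir199a-1 had 1 count per library, and its level was not resolved.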
